A study of Mus musculus with 24 samples.

Results

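The effect of the oral bacterium LGG on dendritic cells was compared between mice labelled Myd88 knockout and wild-type mice. RNA sequencing covered dendritic cells taken with CD11c magnetic beads from the mesenteric lymph nodes of C57BL/6 mice that carried MC38 colon tumours under the skin. Of 24 libraries in 8 groups, 12 libraries in 4 groups of 3 form the comparison: Myd88 knockout with LGG (KO LGG), Myd88 knockout with control IgG (KO IgG), wild type with LGG (WT LGG) and wild type with control IgG (WT IgG). The other 12 libraries, 3 per group, come from knockout and wild-type mice given anti-PD-1 plus LGG (the combination) or anti-PD-1 without LGG. Levels of these libraries did not enter the effects that sort the genes below. The filter on low values and the estimate of spread behind the tests used all 24 libraries. All mice were labelled as females of 6 to 8 weeks, and treatment ran for 2 to 3 weeks once tumours reached 100 mm3. Live LGG was given by mouth 2 times a week, and antibody at 200 ug per mouse at the same interval. The labels do not say whether the knockout covers all cells. The labels record an antibody for the IgG groups and none for the LGG groups, and the comparison cannot separate this from LGG. They name mice pooled before random assignment to groups, and do not say that the 3 libraries of a group come from separate animals. The p-values may therefore measure technical spread only.

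For each gene the LGG effect is the mean log2(normalised count + 1) with LGG minus that with IgG. The genotype difference of the LGG effect is the KO effect minus the WT effect, so it is negative where the KO effect is the lower one. The 12749 of 12767 listed genes with a mean of at least 10 were tested with limma, and a change was called at an adjusted p below 0.05. Errors after a log2 value are standard errors of that model. A WT response is a called WT effect of at least 1 on the log2 scale, and the ratio is the KO effect over the WT effect. Where the genotype difference was called, a response was sorted as lost at a ratio below 0.25, weakened at 0.25 to 0.7 and stronger above 1.4. It was sorted as reversed where the KO effect was called with the opposite sign and a size of at least 0.5. A kept response had a called KO effect of the same sign and a ratio of 0.7 to 1.4, and every other WT response was left undecided. A knockout-only response had a called KO effect of at least 1, a WT effect below 0.5 in size and a called genotype difference. The word lost therefore means a small ratio and not the absence of any KO effect.

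Myd88 is the adaptor through which most Toll-like receptors and the receptors of the interleukin-1 family signal to NF-kB and to inflammatory genes. Toll-like receptor 3 uses the adaptor TRIF, the product of Ticam1, and Toll-like receptor 4 uses both adaptors, TRIF leading to interferon-beta. LGG, Lactobacillus rhamnosus GG, is a Gram-positive gut bacterium whose lipoproteins and cell wall are sensed by Toll-like receptor 2 and whose nucleic acids can be sensed inside the cell. Dendritic cells that sense bacteria usually raise costimulatory molecules and cytokines and turn down uptake receptors.

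Reads of Myd88 were still counted in the libraries labelled knockout. Its normalised counts were 737, 1099.7 and 697 in KO LGG, 1327, 1349.7 and 1136 in KO IgG, 2120.1, 2232 and 1954 in WT LGG and 1970.2, 1774 and 1957 in WT IgG libraries. KO levels lay below WT levels in both treatments without overlap. The deposited values count reads per gene and cannot show whether an exon is missing. The genotype difference of the LGG effect on Myd88 itself was -0.76 ± 0.26 (limma adjusted p = 0.0312). It missed the threshold when any 1 of 7 libraries was left out, namely KO LGG replicates 1 and 3, KO IgG replicates 1 and 2, WT LGG replicates 1 and 2 and WT IgG replicate 2, with adjusted p from 0.0562 to 0.0857. Reads in listed genes ranged from 24531528 to 49272593 per library. KO LGG replicate 2 deviated most from its group mean among the 12 libraries, at a root mean square of 0.446 on the log2 scale against 0.166 to 0.343 in the other 11. Itgax, which encodes CD11c, stood at 42029 to 47571 in KO LGG, 36057 to 37760.5 in KO IgG, 9637 to 10019 in WT LGG and 22690.3 to 23386 in WT IgG libraries. Flt3, a receptor of conventional dendritic cells, stood at 45.4 to 56.7, 5.84 to 9.78, 616 to 658 and 96.0 to 121 in the same groups. Summed levels of 20 macrophage and monocyte genes were 1297790 to 1701960 in KO LGG, 2142390 to 2583270 in KO IgG, 205850 to 228559 in WT LGG and 1020880 to 1075460 in WT IgG libraries. In these bulk samples, fewer cells of a type and less RNA per cell cannot be told apart. The Y-linked gene Ddx3y stood at 1241 to 2136 in the 6 KO libraries and at 0 to 3.34 in the 6 WT libraries, although all mice are labelled female. Genotype and the presence of a Y chromosome cannot be told apart here.

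The genotype difference of the LGG effect was called in 4449 genes, 34.9% of those tested, of which 2487 (19.5%) were higher and 1962 (15.4%) lower in the knockout. LGG changed 4108 genes (32.2%) in the knockout and 7081 genes (55.5%) in wild type. The counts were 9068 and 9777 with array weights, which estimate the quality of each library, and 7830 and 9360 without KO LGG replicate 2 and KO anti-PD-1 replicates 2 and 3. The gap between the genotypes in numbers of called genes thus narrows with array weights or without those libraries. It was wider without KO IgG replicate 1, at 3352 genes in the knockout and 6981 in wild type. KO and WT libraries differed in 7033 genes (55.2%) under LGG and in 4977 genes (39%) under IgG. Of 3198 WT responses of at least 1 (25.1% of genes tested), 1107 were lost, 955 weakened, 387 kept, 22 stronger, 85 reversed and 642 undecided, and 184 further genes were knockout-only. Rises and falls were unequal among the kept genes, 321 rises against 66 falls, while lost genes held 434 rises and 673 falls. The median of the genotype difference over all genes was 0.03.

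**Figure D1:**
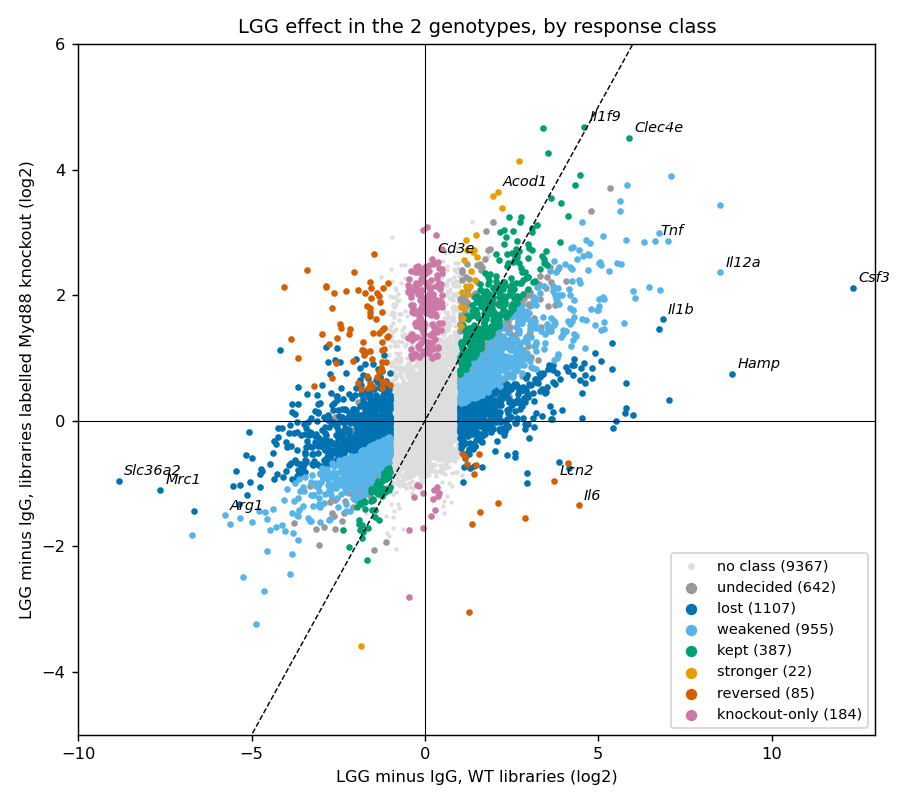
LGG effect (LGG minus IgG, log2) in libraries labelled Myd88 knockout on the y axis against the effect in WT libraries on the x axis, 1 point per gene, coloured by response class; the dashed line marks equal effects. Lost genes lie along the horizontal axis, kept genes along the dashed line, and Il6 and Lcn2 lie at the lower right.

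**Figure D2:**
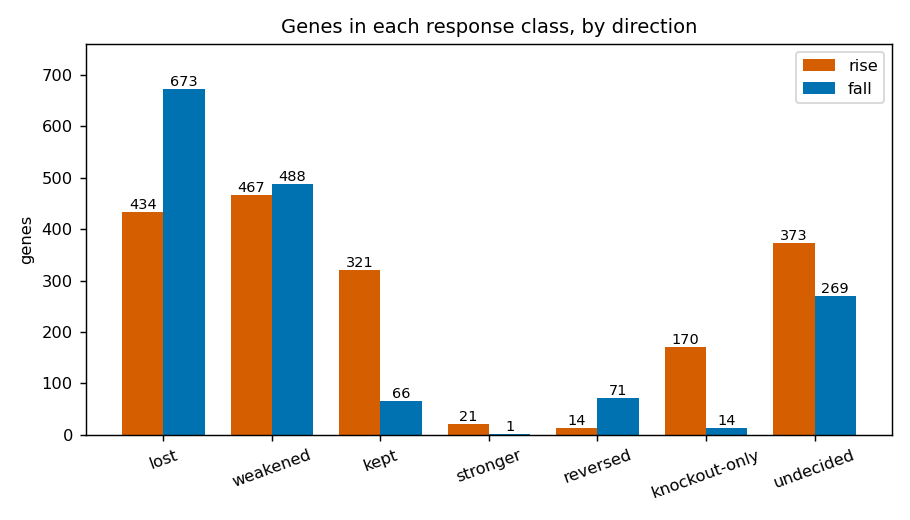
Number of genes in each response class (y axis), with rises and falls as separate bars; direction is that of the WT effect, or of the KO effect for knockout-only genes. Kept genes are mostly rises, 321 against 66 falls, and knockout-only genes hold 170 rises and 14 falls.

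Among 25 tested Toll-like receptor and adaptor genes, the genotype difference was higher in 9 and lower in 5, beside 19.5% and 15.4% of all genes, with a median of 0.17. The same shares apply to the counts of every list below without anti-PD-1. Of all genes tested, 8.68% were lost, 7.49% weakened, 3.04% kept, 0.173% stronger, 0.667% reversed and 5.04% undecided. Tlr2, the receptor for bacterial lipoproteins, rose in both genotypes. Its normalised counts were 2813, 2630.3 and 2437 in KO LGG, 807, 809.8 and 824 in KO IgG, 2920.4, 2993 and 2677 in WT LGG and 846, 843 and 859 in WT IgG libraries. LGG libraries exceeded IgG libraries in both genotypes, and KO LGG and WT LGG libraries overlapped. The effect was 1.69 ± 0.06 in KO and 1.75 ± 0.06 in WT, and the 95% interval of the difference ran from -0.24 to 0.11. Tlr7 and Tlr13, sensors of RNA, and Unc93b1, the chaperone that carries them to endosomes, fell in WT, with effects of -1.49, -2.04 and -1.47, and their KO effects of 0.16, 0.01 and -0.08 did not pass the test. Tlr4, the receptor for lipopolysaccharide, fell in both genotypes, with effects of -0.63 ± 0.17 in KO and -1.86 ± 0.17 in WT. Cd14, a co-receptor of Toll-like receptors 2 and 4, was a lost rise, with 6431, 8133 and 5486 in KO LGG, 4817, 4971 and 4214 in KO IgG, 29562, 29583 and 26098 in WT LGG and 2858, 2626 and 2673 in WT IgG libraries. The KO LGG libraries lay above both IgG groups and below the WT LGG libraries. Ticam1 rose by 0.44 ± 0.08 in KO and 0.86 ± 0.08 in WT, a difference of -0.42 ± 0.12 (limma adjusted p = 0.0078). Irak3, an inhibitor of signalling below Myd88, rose by 0.75 ± 0.08 in KO and 1.26 ± 0.08 in WT.

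Inflammatory cytokines made up the group with the most negative median. Of 26 tested, the genotype difference was lower in 19 and higher in 3, with a median of -2.77; 9 were lost, 8 weakened, 2 kept, 1 stronger and 1 reversed. Csf3, the growth factor for neutrophils, had the largest difference of all genes. Its normalised counts were 8.09, 4.91 and 5.02 in KO LGG, 1.30, 0 and 0.720 in KO IgG, 9972, 10272 and 8403 in WT LGG and 0, 0.903 and 2.26 in WT IgG libraries. WT LGG libraries stood apart from the other 9, in which no value passed 8.09. The WT effect of 12.34 ± 0.56 compared with a KO effect of 2.12 ± 0.56, a difference of -10.22 ± 0.79. With IgG levels so near 0 the size depends on the 1 added before the logarithm, and adding 8 gave -9.36. Il1b, which encodes interleukin-1 beta, had 1469, 1761 and 1280.1 in KO LGG, 489, 518 and 454 in KO IgG, 76794, 77313 and 67719 in WT LGG and 704, 593 and 615 in WT IgG libraries. Il12b, the shared subunit of interleukins 12 and 23, had 40.5, 18.4 and 56.3 in KO LGG, 7.82, 15.2 and 14.4 in KO IgG, 4611, 4515 and 4920.4 in WT LGG and 34.8, 46.1 and 46.3 in WT IgG libraries. KO LGG libraries of Il1b stood above both IgG groups, while those of Il12b overlapped the WT IgG libraries. Both genes rose in the knockout too, Il1b by 1.61 ± 0.12 and Il12b by 1.46 ± 0.39, and their genotype differences were -5.24 ± 0.17 and -5.30 ± 0.55. Hamp, which encodes the iron hormone hepcidin and belongs to no list, had 8.09, 12.3 and 4.02 in KO LGG, 3.91, 4.67 and 3.60 in KO IgG, 1534, 1539 and 1484 in WT LGG and 2.18, 0 and 10.2 in WT IgG libraries. The KO LGG and KO IgG libraries overlapped. Its KO effect of 0.75 ± 0.61 did not pass the test, against a WT rise of 8.85 ± 0.61. The genotype difference of Hamp was -8.11, and adding 8 gave -6.68.

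Tnf, Il12a, Il10, Il1a and Il23a were weakened rather than lost. Tnf counts were 3683, 4706 and 3204 in KO LGG, 499, 594 and 482 in KO IgG, 66264, 65029.7 and 59567 in WT LGG and 680.3, 658 and 585 in WT IgG libraries. The KO LGG libraries lay above both IgG groups and below every WT LGG library. Tnf rose by 2.87 ± 0.15 in KO and 6.63 ± 0.15 in WT, and Il12a, the other subunit of interleukin-12, by 2.37 ± 0.49 in KO and 8.52 ± 0.49 in WT. The genotype difference was -3.77 ± 0.22 for Tnf, -6.15 ± 0.70 for Il12a, -4.33 ± 0.65 for the anti-inflammatory Il10, -3.47 ± 0.12 for Il1a and -2.98 ± 0.47 for Il23a. Adding 8 before the logarithm gave -3.77, -5.29, -5.12, -3.46 and -3.34 in the same order. Nos2, which encodes the enzyme that makes nitric oxide, was weakened, with a rise of 3.89 ± 0.08 in KO beside 7.09 ± 0.08 in WT. Its counts were 1738, 1461 and 1757 in KO LGG, 116, 106 and 107 in KO IgG, 31284, 30559 and 30018 in WT LGG and 244, 228 and 202 in WT IgG libraries. Every LGG library exceeded every IgG library. Ptgs2, the prostaglandin-producing cyclooxygenase 2, differed by -4.20 ± 0.48.

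Chemokines were split by direction, with the genotype difference lower in 15 and higher in 6 of 23 tested and a median of -1.23. The list held 6 lost rises, 4 lost falls, 7 weakened rises and 1 weakened fall. All chemokines named in this paragraph had a lower genotype difference. Cxcl1, which attracts neutrophils, had 806, 869 and 774 in KO LGG, 769.9, 659 and 699.9 in KO IgG, 11966, 12249 and 11231 in WT LGG and 202, 229 and 204 in WT IgG libraries. Its KO LGG and KO IgG libraries did not overlap but lay close, and the KO effect did not pass the test, at 0.20 ± 0.11 (limma adjusted p = 0.181) against 5.79 ± 0.11 in WT. KO IgG levels exceeded WT IgG levels, by 1.74 ± 0.11. Cxcl2, a related neutrophil attractant, had a KO effect of 0.89 ± 0.09 and a WT effect of 4.31 ± 0.09. Cxcl9, an interferon-gamma target that attracts T cells, differed by -3.07 ± 0.74, and Cxcl10, which acts on the same receptor, by -1.78 ± 0.23. The T cell attractants Ccl5 and Ccl22 were weakened, with differences of -3.01 ± 0.49 and -2.50 ± 0.25.

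Genes of dendritic cell maturation moved in the same direction. Of 22 migratory and mature dendritic cell genes, the genotype difference was lower in 19 and higher in none, with a median of -1.80, and of 19 costimulation and checkpoint ligands it was lower in 12 and higher in 1, with a median of -1.05. Cd86, a ligand of CD28 on T cells, had 1650.3, 1719.6 and 1603 in KO LGG, 947, 1039 and 974 in KO IgG, 17055, 17375 and 17417 in WT LGG and 1627, 1639 and 1577 in WT IgG libraries. Cd80, the related ligand, and Cd83, a maturation marker, were also lost, with differences of -2.52 ± 0.13 and -2.09 ± 0.24. Cd40, through which helper T cells act on dendritic cells, was weakened, with 926, 1211 and 710.4 in KO LGG, 169, 197 and 126 in KO IgG, 13701, 13536 and 12155 in WT LGG and 294, 322 and 239 in WT IgG libraries. The KO LGG libraries of Cd86 and Cd40 lay above the KO IgG libraries and below the WT LGG libraries, and those of Cd86 overlapped the WT IgG libraries. Ccr7, the receptor that guides dendritic cells along lymphatic vessels, rose by 1.64 ± 0.17 in KO and 3.63 ± 0.17 in WT, and Fscn1, an actin-bundling protein of mature dendritic cells, by 2.42 ± 0.16 and 4.24 ± 0.16. Cd274, which encodes PD-L1, rose by 0.80 ± 0.15 in KO and 1.86 ± 0.15 in WT. Irf8, a transcription factor of dendritic cell development, had 4184, 4319 and 4126 in KO LGG, 3489, 3571 and 3359 in KO IgG, 34740.5, 35299.6 and 34662 in WT LGG and 5139, 5237 and 5408 in WT IgG libraries. The 4 groups did not overlap. Irf8 rose by 0.28 ± 0.05 in KO, against 2.73 ± 0.05 in WT.

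NF-kB subunits and feedback regulators held both weakened and kept rises. Of 32 tested, the genotype difference was lower in 18 and higher in 1, with a median of -0.65; 11 were weakened, 6 kept and 4 lost. Nfkbia, the inhibitor IkB-alpha, rose by 1.05 ± 0.13 in KO and 2.75 ± 0.13 in WT, and Nfkbiz, a nuclear partner of NF-kB, by 0.71 ± 0.21 and 2.55 ± 0.21. Relb, a subunit of the noncanonical pathway, and Tnfaip3, the inhibitor A20, were kept. Relb rose by 2.11 ± 0.16 in KO and 1.95 ± 0.16 in WT, with an interval of the difference from -0.32 to 0.64.

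Lost and weakened falls included many genes of macrophages and of dendritic cells grown with GM-CSF. Of 20 macrophage and monocyte genes, the genotype difference was higher in 13 and lower in 3, with a median of 2.07; of 17 genes typical of GM-CSF cultures it was higher in 13 and lower in none, with a median of 2.18. Mrc1, the mannose receptor CD206, had 5764, 3718 and 6929 in KO LGG, 10738, 10944 and 12463 in KO IgG, 41.2, 35.0 and 48.9 in WT LGG and 8297, 8840.1 and 8399.9 in WT IgG libraries. WT LGG libraries stood far below the other 9. The effect was -1.10 ± 0.21 in KO, a called fall, and -7.65 ± 0.21 in WT. Ccr2, the receptor that brings monocytes out of bone marrow, had 3665, 3109 and 4251 in KO LGG, 5819, 6569.9 and 6786 in KO IgG, 121, 136 and 140.0 in WT LGG and 5836, 5817 and 5713 in WT IgG libraries. Here too the WT LGG libraries were the lowest, and KO LGG lay below KO IgG libraries. Csf1r, the receptor for macrophage colony-stimulating factor, had 20588, 19344 and 20668 in KO LGG, 15847, 16282 and 15696 in KO IgG, 3667, 3590.3 and 3601 in WT LGG and 18470.1, 18082 and 19582 in WT IgG libraries. It rose in KO, with an effect of 0.34 ± 0.06, and fell in WT, with -2.37 ± 0.06. The KO rise was below the size of 0.5 required of a reversed response. Itgax, chosen after its values were seen because CD11c was the basis of the cell selection, had effects of 0.29 ± 0.07 in KO and -1.23 ± 0.07 in WT. Lyz2, C1qa, Fn1, Mgl2 and Pparg were lost falls with differences of 1.91 ± 0.21, 3.59 ± 0.40, 4.91 ± 0.26, 3.21 ± 0.14 and 3.42 ± 0.28. Slc36a2, an amino acid transporter, had 810.3, 833 and 806 in KO LGG, 1568, 1613 and 1573 in KO IgG, 2.23, 1.03 and 1.88 in WT LGG and 1204, 1265 and 1162 in WT IgG libraries. Its effect was -0.96 ± 0.26 in KO, a called fall, and -8.83 ± 0.26 in WT. With WT LGG levels so near 0 the difference of 7.87 ± 0.36 depends on the pseudocount, and adding 8 gave 6.02, below the 6.33 of Mrc1 under that setting. Tlr8, an endosomal RNA sensor, fell in WT with an effect of -6.65 ± 1.04. Its KO effect of -1.44 ± 1.04 did not pass the test, and its KO LGG libraries spread widely, at 354, 52.8 and 626.

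Arg1, which competes with nitric oxide synthase for arginine, was a weakened fall. Its counts were 41613, 40595 and 39953 in KO LGG, 109878, 113482 and 123425 in KO IgG, 1235, 1292 and 1349 in WT LGG and 74089.5, 70866 and 67268 in WT IgG libraries. No group overlapped another, and the effect was -1.50 ± 0.15 in KO against -5.77 ± 0.15 in WT. Fbp1, an enzyme of gluconeogenesis, fell in both, with -1.81 ± 0.24 in KO and -6.71 ± 0.24 in WT. Its difference of 4.89 depends on the pseudocount, and adding 8 gave 3.43. The summed macrophage and monocyte level given above, which includes several of these genes, moved with them. The part of cell composition in these falls was not tested. Cell cycle genes fell in both genotypes, with 25 of 28 called in KO and 27 of 28 in WT, beside 14.2% and 28.2% of all genes, and the genotype difference was higher in 17 and lower in 2, with a median of 0.49. Clec7a, the beta-glucan receptor dectin-1, was a lost fall with a difference of 1.55 ± 0.10.

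Kept rises included receptors, an interleukin-36 gene and many interferon-induced genes. Clec4e, the glycolipid receptor Mincle, had 14304, 13908 and 14199.7 in KO LGG, 597, 644 and 622 in KO IgG, 21806, 21716 and 20232 in WT LGG and 356, 403 and 319.7 in WT IgG libraries. Every LGG library far exceeded every IgG library. The rise was 4.51 ± 0.08 in KO and 5.89 ± 0.08 in WT, at a ratio of 0.766, and the difference of -1.38 ± 0.12 was itself called (limma adjusted p = 1.79e-08). Such a called difference was present in 22 of the 387 kept genes. Il1f9, which encodes interleukin-36 gamma, had 769, 787 and 813 in KO LGG, 31.3, 32.7 and 25.9 in KO IgG, 1653, 1591 and 1546 in WT LGG and 81.6, 62.3 and 54.2 in WT IgG libraries. KO libraries lay below WT libraries under both treatments. The rise was 4.68 ± 0.15 in KO and 4.59 ± 0.15 in WT, with an interval of the difference from -0.37 to 0.54. Clec4d, a partner of Mincle, rose by 2.00 ± 0.27 in KO and 2.41 ± 0.27 in WT. Across the 321 kept rises, 146 had a 95% interval of the difference within 1 log2 unit of 0 on either side, and the same held for 47 of 66 kept falls. For the rest of the kept genes the interval reaches a larger difference, so a missed threshold does not show equal effects. Kept rises started lower in the knockout, with a median KO minus WT of -1.34 under IgG and -1.45 under LGG. Kept falls included Id3, a transcriptional regulator, with -1.74 ± 0.23 in KO and -2.37 ± 0.23 in WT, and Thbd, which encodes thrombomodulin, with -1.65 ± 0.29 and -1.90 ± 0.29.

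Type I interferon response genes were the list with the most kept members. LGG raised 36 of 42 in KO and 41 of 42 in WT, beside 18.1% and 27.4% of all genes, and none fell in either genotype. In this list 18 genes were weakened, 12 kept, 4 undecided, 3 stronger and 1 lost. The genotype difference was lower in 21 and higher in 4 of 42, beside 15.4% and 19.5% of all genes, with a median of -0.66. Rsad2, which encodes the antiviral enzyme viperin, had 4409, 3337 and 5072 in KO LGG, 394, 313 and 448 in KO IgG, 8780.1, 8675 and 8976 in WT LGG and 544, 594 and 593 in WT IgG libraries. Ifit1, which binds viral RNA, had 1409, 1651 and 1447 in KO LGG, 153, 129 and 191 in KO IgG, 4676, 4564 and 4008 in WT LGG and 237, 251 and 262 in WT IgG libraries. LGG and IgG libraries of both genes were separate in each genotype, and the KO LGG libraries lay below the WT LGG libraries. The difference was -0.47 ± 0.19 for Rsad2 (limma adjusted p = 0.0635) and -0.87 ± 0.36 for Ifit1 (adjusted p = 0.0707). Across the alternatives the adjusted p ran from 0.00080 to 0.172 for Rsad2 and from 2.18e-07 to 0.162 for Ifit1. Rsad2 passed without KO IgG replicate 2 (limma adjusted p = 0.0149) or KO LGG replicate 3 (0.0157). Ifit3, of the same family as Ifit1, rose by 3.06 ± 0.24 in KO and 3.09 ± 0.24 in WT, and Oas3, which helps to start the cleavage of viral RNA, by 2.12 ± 0.16 and 2.16 ± 0.16. Isg15, a ubiquitin-like modifier, and Irf7, which amplifies interferon production, were weakened, with differences of -2.31 ± 0.29 and -1.20 ± 0.24. Ifnb1, which encodes interferon-beta, had 16.2, 30.7 and 11.1 in KO LGG, 1.96, 1.17 and 0 in KO IgG, 63.5, 75.1 and 54.5 in WT LGG and 1.09, 0.903 and 2.26 in WT IgG libraries. It rose in both genotypes without overlap, by 3.33 ± 0.46 in KO and 4.79 ± 0.46 in WT, and the difference of -1.45 ± 0.65 missed the threshold (limma adjusted p = 0.0948). It passed without KO LGG replicate 2 (limma adjusted p = 0.0349) or KO IgG replicate 3 (0.0283), and ran from 0.000515 to 0.371 across the alternatives. Tmem173, which encodes the DNA-sensing adaptor STING, had a difference of 0.05 ± 0.12 that was not called.

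Promoters of 4 genes are shown, 1 lost, 1 reversed and 2 kept rises. Each sequence is the 250 bases before the RefSeq start in build GRCm38.p6, 5′ to 3′ on the strand of the gene. Capitals mark the kappaB motif (GGGA, any 1 base, TTTCC), the interferon-stimulated motif (GAAA, any 2 bases, GAAA) and the AP-1 motif (TGA, any 1 base, TCA), searched on both strands. None overlaps another in these promoters. Cxcl1, a lost rise, lies at chr5:90890995-90891244 on the plus strand with 1 kappaB motif. Il6, a reversed rise, lies at chr5:30012864-30013113 on the plus strand with 1 kappaB and 1 AP-1 motif. Rsad2, a kept rise, lies at chr12:26456453-26456702 on the minus strand with 1 interferon-stimulated and 1 AP-1 motif. Ifit1, a kept rise, lies at chr19:34640639-34640888 on the plus strand with 2 interferon-stimulated motifs.
Cxcl1: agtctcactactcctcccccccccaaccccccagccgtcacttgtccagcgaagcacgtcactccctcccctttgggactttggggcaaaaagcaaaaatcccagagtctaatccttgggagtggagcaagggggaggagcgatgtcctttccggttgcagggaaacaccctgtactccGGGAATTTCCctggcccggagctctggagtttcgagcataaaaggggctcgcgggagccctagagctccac
Il6: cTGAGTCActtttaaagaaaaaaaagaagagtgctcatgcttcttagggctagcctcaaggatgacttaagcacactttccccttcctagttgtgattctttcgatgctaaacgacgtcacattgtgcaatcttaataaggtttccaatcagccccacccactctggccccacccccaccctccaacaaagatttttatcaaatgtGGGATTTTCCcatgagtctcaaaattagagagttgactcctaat
Rsad2: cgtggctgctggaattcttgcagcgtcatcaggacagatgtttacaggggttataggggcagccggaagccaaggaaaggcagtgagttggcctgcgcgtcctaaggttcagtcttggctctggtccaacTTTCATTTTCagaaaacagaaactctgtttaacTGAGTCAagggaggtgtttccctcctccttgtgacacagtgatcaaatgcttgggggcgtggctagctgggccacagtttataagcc
Ifit1: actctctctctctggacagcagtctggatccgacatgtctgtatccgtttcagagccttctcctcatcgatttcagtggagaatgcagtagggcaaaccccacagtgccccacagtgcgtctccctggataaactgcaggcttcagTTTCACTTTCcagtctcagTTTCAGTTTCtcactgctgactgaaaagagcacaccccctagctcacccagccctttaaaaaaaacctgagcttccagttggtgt
Of 32851 promoters of this length, 0.356% hold the kappaB motif, 2.98% the interferon-stimulated motif and 6.75% the AP-1 motif. A match describes letters and shows no binding. Promoters were found for 77.0% of the lost rises and 73.5% of the kept rises, under the 80% required, so a comparison of motif shares between classes is void and is not given.

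**Figure D3:**
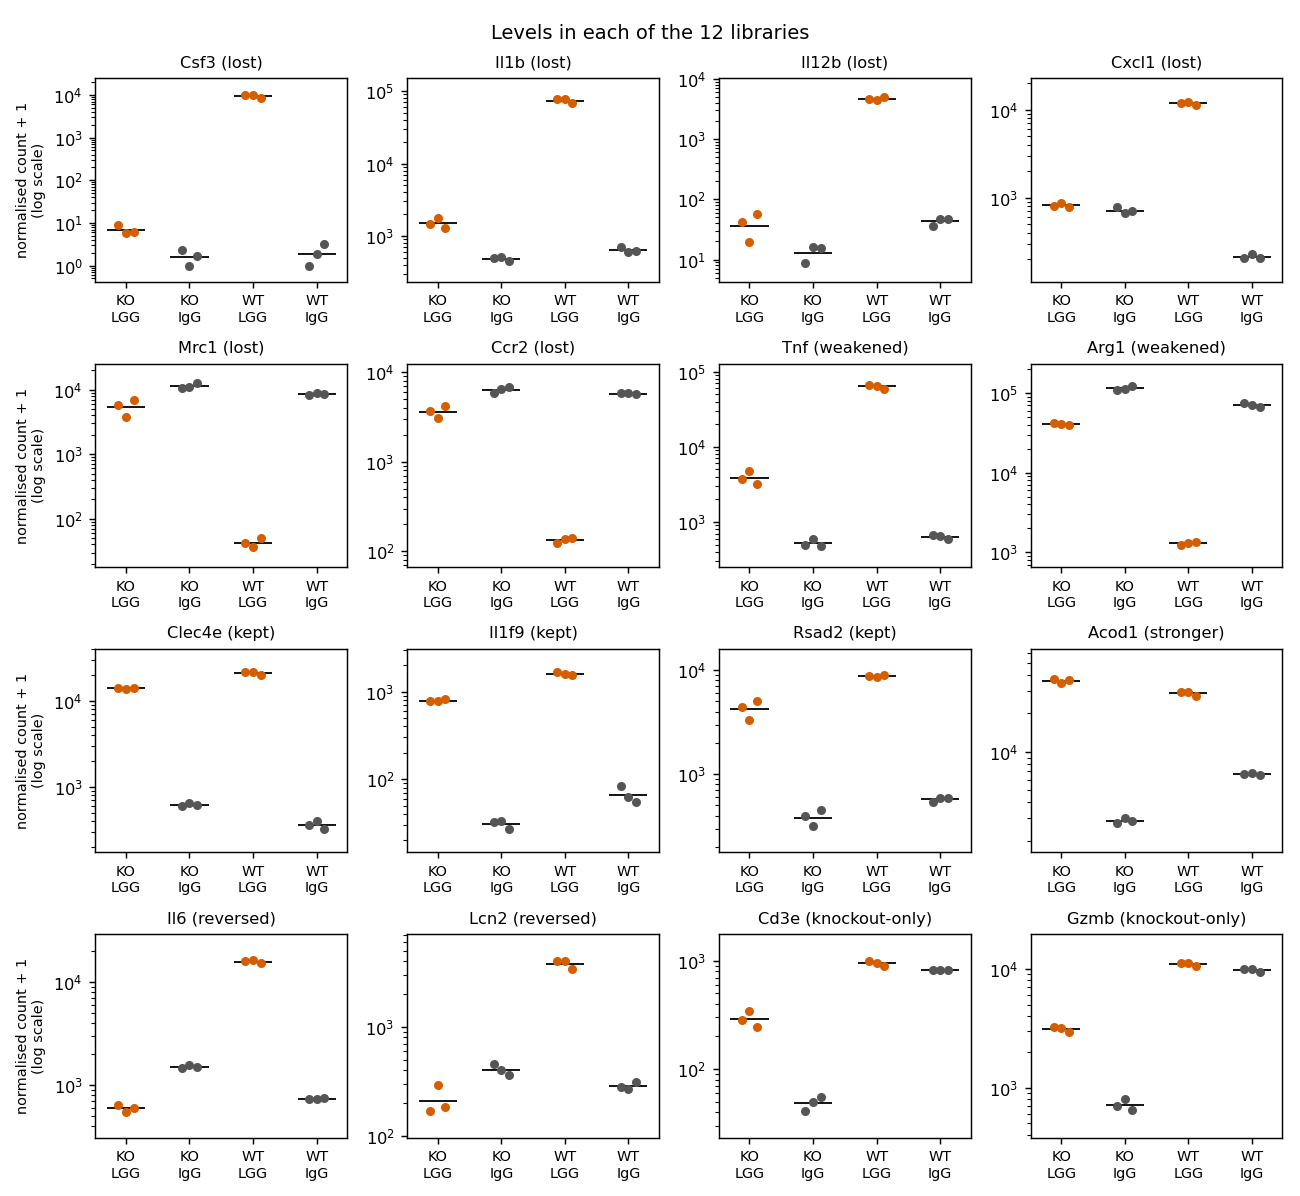
Normalised count + 1 (y axis, log scale) of 16 genes in each of the 12 libraries, with LGG libraries in orange and IgG libraries in grey; bars mark the mean of the logarithms, and the class stands after each gene name. Csf3 reaches 8403 to 10272 in WT LGG libraries and at most 8.09 in the others, while Clec4e rises in both genotypes and Il6 moves in opposite directions.

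Only 22 responses were stronger in the knockout, 21 rises and 1 fall. Acod1, which makes itaconate, had 37356, 34628 and 36400.5 in KO LGG, 2766, 3008 and 2854 in KO IgG, 29414, 29146 and 27569 in WT LGG and 6738, 6769 and 6598 in WT IgG libraries. KO libraries were the highest of all with LGG and the lowest of all with IgG, and the rise was 3.65 ± 0.07 in KO against 2.10 ± 0.07 in WT (limma adjusted p of the difference = 2.19e-10). Lif, a cytokine of the interleukin-6 family, rose by 2.02 ± 0.13 in KO and 1.24 ± 0.13 in WT, and Ifit2, related to Ifit1, by 2.61 ± 0.23 and 1.49 ± 0.23. Adamts14, a metalloproteinase, and Pdcd1, which encodes PD-1, differed by 1.61 ± 0.37 and 1.50 ± 0.45. Pdcd1 stood at 17.1, 12.3 and 15.1 in KO LGG and 0, 2.34 and 1.44 in KO IgG libraries, and with a pseudocount of 8 its difference was -0.042. KO levels of both genes lay below WT levels under LGG and under IgG. The stronger rises had a median KO minus WT of -1.22 under IgG and -0.06 under LGG. The only stronger fall was Matn2, which encodes an extracellular matrix protein, with 12.6, 11.0 and 8.04 in KO LGG, 130.4, 146 and 131 in KO IgG, 3.34, 1.03 and 0.940 in WT LGG and 18.5, 6.32 and 4.52 in WT IgG libraries. KO LGG overlapped WT IgG libraries. Its difference of -1.74 ± 0.59 (limma adjusted p = 0.0262) missed the threshold without WT IgG replicate 2 or 3, WT LGG replicate 1, KO IgG replicate 2 or KO LGG replicate 3, with adjusted p from 0.0537 to 0.0844. It also missed the threshold with edgeR (-1.24, adjusted p = 0.316), with DESeq2 (-1.18, adjusted p = 0.264) and with limma on the 12 libraries alone (adjusted p = 0.0553), so the call of this fall rests on the fit used.

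Reversed responses numbered 85, with 14 genes that LGG raised in WT and lowered in KO, and 71 with the opposite pattern. Il6, a main inflammatory cytokine and a known target of Myd88 signalling, led the first set, with 635, 544 and 592 in KO LGG, 1452, 1560.1 and 1496 in KO IgG, 15890.5, 16309 and 15317 in WT LGG and 722, 735 and 741 in WT IgG libraries. KO LGG libraries were the lowest of the 12 and WT LGG libraries the highest. Its effect was -1.35 ± 0.08 in KO and 4.43 ± 0.08 in WT, a difference of -5.78 ± 0.11 (limma adjusted p = 6.22e-18). Lcn2, an iron-scavenging protein, had 167, 293 and 184 in KO LGG, 458, 397 and 362 in KO IgG, 3995, 4012 and 3415 in WT LGG and 281, 270.1 and 307 in WT IgG libraries. KO LGG libraries lay below KO IgG and overlapped WT IgG libraries. Serpinb9b, a protease inhibitor, had 299, 252 and 271 in KO LGG, 431, 415 and 461 in KO IgG, 1909, 2042 and 1904 in WT LGG and 118, 115 and 103 in WT IgG libraries. The effect on Lcn2 was -0.95 ± 0.23 in KO and 3.73 ± 0.23 in WT, and that on Serpinb9b -0.67 ± 0.14 in KO and 4.12 ± 0.14 in WT.

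Genes with the opposite pattern were lower in KO than in WT under IgG in 51 of 71, beside 20% of all genes. Their median KO minus WT was -2.81 under IgG and 0.73 under LGG, and the IgG gap was the larger one in 47 of 71, beside 47 of 434 lost rises, 52 of 673 lost falls and 38.1% of all genes. These gaps share libraries with the sorting rule and are given as a description. Eomes, a transcription factor of cytotoxic lymphocytes, had 268, 225 and 230.1 in KO LGG, 65.2, 71.3 and 68.4 in KO IgG, 349, 389.7 and 336 in WT LGG and 1153, 1046 and 1009 in WT IgG libraries. The effect was 1.80 ± 0.12 in KO and -1.58 ± 0.12 in WT, and all KO libraries stayed below all WT libraries. Klrb1c, which encodes the natural killer receptor NK1.1, had effects of 1.00 ± 0.32 in KO and -3.65 ± 0.32 in WT. Itgae, which encodes the integrin CD103 of intraepithelial lymphocytes and some dendritic cells, had 63.0, 41.7 and 92.4 in KO LGG, 27.4, 32.7 and 28.8 in KO IgG, 107, 144 and 103 in WT LGG and 426, 395 and 367 in WT IgG libraries. The 6 KO libraries of Itgae again stayed below the 6 WT libraries. Ccl1, a chemokine made by activated T cells, had 13.5, 29.5 and 10.0 in KO LGG, 7.17, 3.51 and 7.92 in KO IgG, 8.92, 10.3 and 5.64 in WT LGG and 133, 127 and 131 in WT IgG libraries. Its KO LGG libraries overlapped the WT LGG libraries. Nfasc, a cell adhesion gene, had few reads in KO IgG libraries, at 2.61, 2.34 and 3.60, and differed by 5.81 ± 0.74, which a pseudocount of 8 lowered to 3.70.

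Knockout-only rises numbered 170 and knockout-only falls 14. The rises started from low KO IgG levels, with a median KO minus WT of -2.84 under IgG and -1.05 under LGG, and the IgG gap was the larger one in 148 of 170, beside 38.1% of all genes. These gaps too share libraries with the sorting rule, which selects a KO rise with little WT change, and are a description only. These rises included 7 of the 25 T cell genes tested, beside 1.33% of all genes. Cd3e, part of the T cell receptor complex, had 282, 345 and 244 in KO LGG, 39.8, 49.1 and 54.0 in KO IgG, 997, 950.0 and 902 in WT LGG and 825, 820.3 and 818 in WT IgG libraries. Cd8a, the co-receptor of cytotoxic T cells and of some dendritic cells, had 1738, 1902 and 1758 in KO LGG, 434, 457 and 379 in KO IgG, 5238, 5242 and 5198 in WT LGG and 6509, 6220.1 and 6217 in WT IgG libraries. Gzmb, which encodes granzyme B, had 3233, 3169 and 2952 in KO LGG, 702, 792 and 652 in KO IgG, 11159, 11302 and 10647 in WT LGG and 9979.6, 9907 and 9417 in WT IgG libraries. In each of these genes KO LGG libraries lay between KO IgG and WT libraries, without overlap. The KO rise was 2.58 ± 0.18 for Cd3e, 2.09 ± 0.08 for Cd8a and 2.13 ± 0.08 for Gzmb, while WT effects were 0.21 ± 0.18, -0.27 ± 0.08 and 0.18 ± 0.08. LGG raised all 25 T cell genes in KO and 9 of 25 in WT, beside 18.1% and 27.4% of all genes. Their summed level was 7847 to 10302 in KO LGG, 2508 to 2781 in KO IgG, 25669 to 27228 in WT LGG and 20209.8 to 21423 in WT IgG libraries, and none of the 25 was at 0 in all 12 libraries. The part of T cells carried along with the CD11c selection in these rises was not tested. Natural killer and cytotoxic genes showed the same start, with a median KO minus WT of -3.50 under IgG. Their genotype difference was higher in 7 and lower in 2 of 13. In the libraries with anti-PD-1, described below, it was higher in 3 and lower in 6 of these 13, with a median of -0.80.

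Knockout-only falls were of another kind. Ccl7, a monocyte attractant, had 4499.6, 6732 and 3852 in KO LGG, 14551, 14775 and 12714 in KO IgG, 5745, 5701 and 4734 in WT LGG and 5124, 4718 and 4494 in WT IgG libraries. KO IgG libraries stood above the other 9, and the KO fall was -1.52 ± 0.21, against a WT effect of 0.17 ± 0.21 that did not pass the test. Fam20a, a pseudokinase of enamel formation, had 18.0, 14.7 and 7.03 in KO LGG, 96.5, 108 and 77.0 in KO IgG, 21.2, 15.4 and 11.3 in WT LGG and 28.3, 15.4 and 22.6 in WT IgG libraries. Again only KO IgG libraries stood apart, and the KO effect was -2.81 ± 0.37.

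The sorting was set against the 12 libraries with anti-PD-1, which share no library with the 4 groups above. There the LGG effect is the combination minus anti-PD-1 alone, and its genotype difference was called in 4804 genes (37.7%), 2611 higher (20.5%) and 2193 lower (17.2%). A fit of these 12 libraries alone called 3794 genes, and the recurrence below was not recounted in it. The calls below come from the fit of all 24 libraries. That fit shares 1 estimate of spread per gene with the sorting, so these calls are not independent of it. Among lost rises the genotype difference with anti-PD-1 was called in the same direction in 382 of 434 (88.0%), and in none in the other direction. Among lost falls it recurred in 591 of 673 (87.8%), among weakened rises in 419 of 467 (89.7%) and among weakened falls in 418 of 488 (85.7%). Reversed rises recurred in 12 of 14 and reversed falls in 59 of 71. Csf3 had a difference of -11.69 ± 0.79 with anti-PD-1, Il1b -5.94 ± 0.17, Il6 -5.79 ± 0.11, Tnf -3.73 ± 0.22 and Mrc1 6.44 ± 0.29. Il6 counts were 547, 499 and 559.8 in the KO combination and 1831, 1627 and 1447 in KO anti-PD-1 libraries, against 14588, 14193 and 14849 in the WT combination and 808, 782 and 799 in WT anti-PD-1 libraries. The fall in KO and the rise in WT were thus present again, without overlap.

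Kept and knockout-only rises recurred in part. Among the 321 kept rises, 235 rose in the KO with anti-PD-1 (19.7% of all genes did), but the genotype difference was called lower in 145 and higher in 5. Ifit1 and Rsad2 were among the 145, with differences of -2.15 ± 0.36 and -1.06 ± 0.19, whereas Il1f9 at 0.02 ± 0.22 and Tlr2 at -0.20 ± 0.08 were not called. Over the type I interferon list the genotype difference was lower in 31 and higher in 1 of 42 with anti-PD-1, at a median of -1.02. Of the 170 knockout-only rises, 110 rose in KO with anti-PD-1 and 61 in WT (27.7% of all genes did), and the genotype difference was called higher in 55 (32.4%) and lower in 2. The change of the genotype difference with anti-PD-1 was itself called in 130 genes (1.02%), 28 of them knockout-only rises. This test shares libraries with the sorting rule, which selects knockout-only rises on a high difference without anti-PD-1. A lower difference with anti-PD-1 is thus partly built in for this class, and the 28 are a description only. T cell genes had a median difference of 0.01 with anti-PD-1, higher in 7 and lower in 2 of 25, against 1.46 without it, higher in 18 and lower in 1. Without KO LGG replicate 2 and KO anti-PD-1 replicates 2 and 3 the medians were -0.03 with anti-PD-1 and 1.30 without it. Cd3e differed by 0.32 ± 0.26, Cd8a by 0.87 ± 0.11 and Gzmb by 0.74 ± 0.12. Acod1 was stronger in KO here too, by 1.27 ± 0.10, but the class as a whole recurred only in part. Among the 21 stronger rises the genotype difference with anti-PD-1 was called higher in 7 and lower in 3. Its median was 0.20 with anti-PD-1 against 1.11 without it. KO anti-PD-1 replicates 2 and 3 lay far from their group mean, at 0.583 and 0.578 on the log2 scale. Without them and KO LGG replicate 2, only 1 KO anti-PD-1 library remained, so medians of the genotype difference are given. With anti-PD-1 these medians were -1.54 for lost rises, 1.66 for lost falls and 0.62 for knockout-only rises. With all libraries they were -1.50, 1.57 and 0.49.

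**Figure D4:**
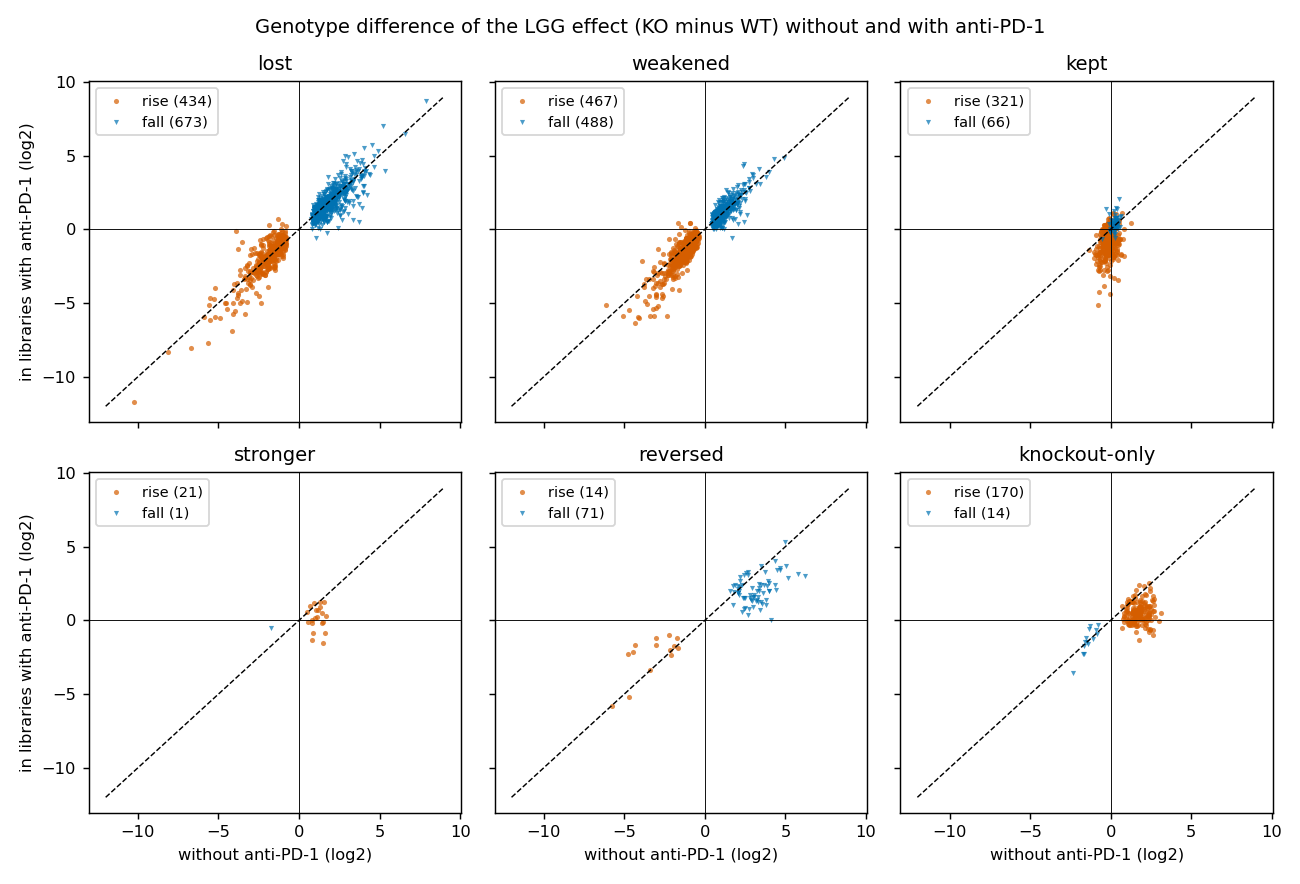
Genotype difference of the LGG effect (KO minus WT, log2) in libraries with anti-PD-1 on the y axis against the same difference without anti-PD-1 on the x axis, 1 panel per class and 1 point per gene, with rises as circles and falls as triangles; the dashed line marks equal values. Lost and weakened genes lie near the line, while knockout-only rises lie below it, with a median of 0.49 with anti-PD-1 against 1.74 without. The sorting rule used the values on the x axis, so these medians are a description only.

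Of 24 genes of MHC class I presentation, the genotype difference was lower in 12 and higher in 1, beside 15.4% and 19.5% of all genes. The median was -0.47. In MHC class II presentation the genotype difference was higher in 6 and lower in none of 15, with a median of 0.44. With anti-PD-1 it was higher in 4 and lower in 3, with a median of -0.13. Among the 6 higher without anti-PD-1 were the peptide loader H2-DMa at 1.57 ± 0.34 and the lysosomal protease Ctss at 0.92 ± 0.19, both lost falls. Interferon-gamma response genes were lower in 11 and higher in 3 of 27, and cholesterol synthesis genes higher in 9 and lower in 1 of 20. C-type lectin receptors and their signalling genes were higher in 9 and lower in 3 of 19, with Clec4e among the 3. Genes of dissociation and heat shock were lower in 8 and higher in 3 of 14, and their part in the other results was not tested.

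**Figure D5:**
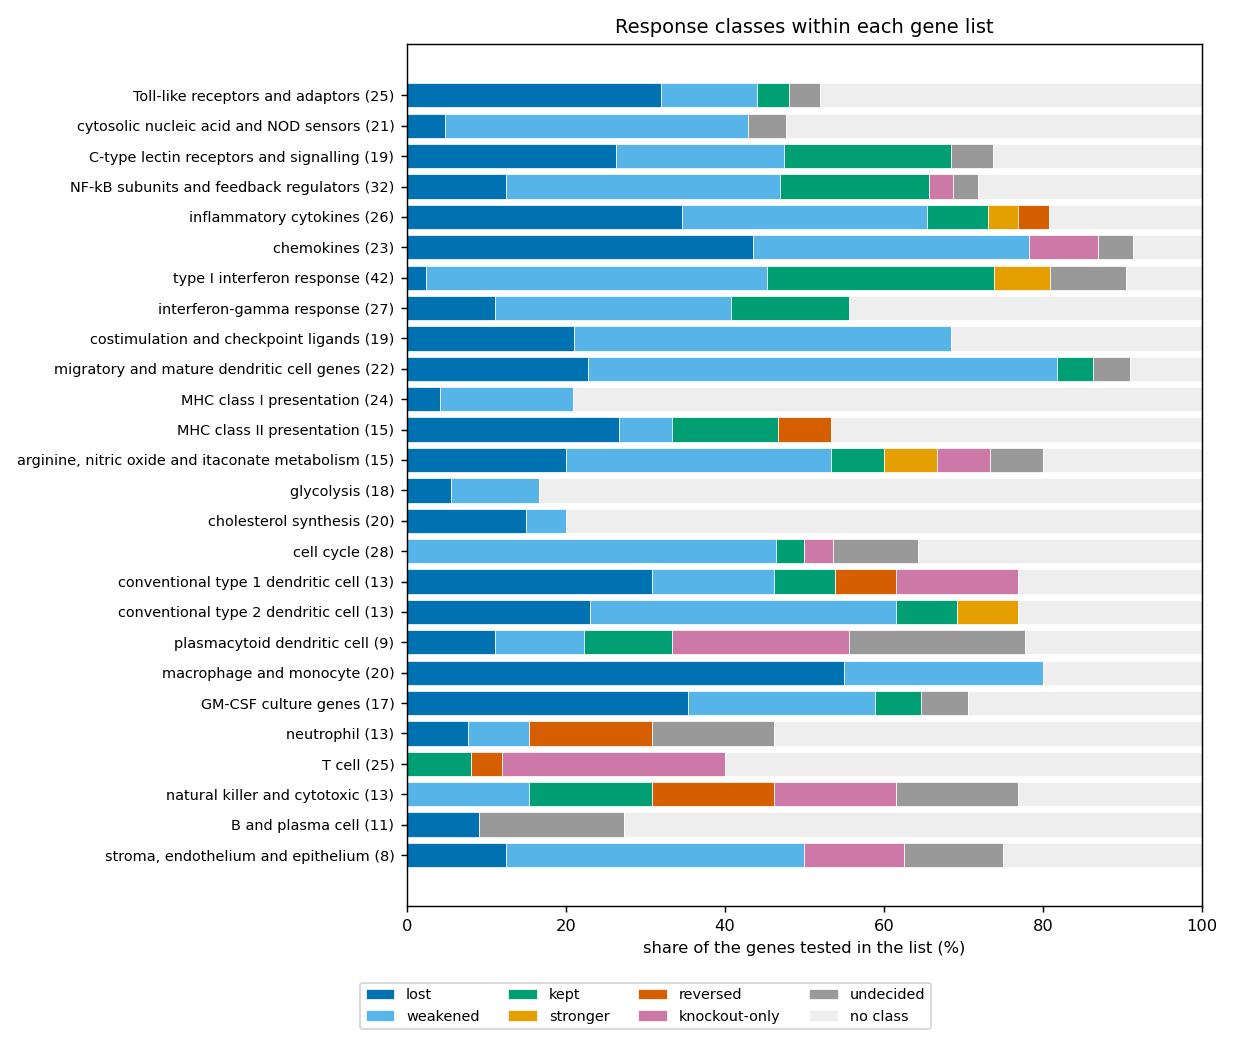
Share of the tested genes of each list (x axis, percent) that fall in each response class, 1 bar per list with the number of genes tested in brackets. Chemokines and macrophage genes hold large lost shares, type I interferon genes hold mainly weakened and kept members, and T cell genes hold 7 knockout-only members of 25.

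The genes nearest to each border of the classes differed little in value. Myo1g at a ratio of 0.25011 was weakened and Scamp5 at 0.24995 was lost. Ly75, the endocytic receptor DEC-205, at 0.7005 was kept and Rad51ap1 at 0.6992 was weakened. Rtp4 at 1.46 was stronger and Krba1 at 1.398 kept. Mif4gd with a WT effect of 1.0005 counted as a response and Rsad1 at -0.9991 did not. Padi2 with a WT effect of 0.498 was knockout-only and Trbc1 at 0.503 was not. March1 with a KO rise of 0.5007 was reversed and Anpep at 0.4987 was lost.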

How the data were processed

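RNA sequencing covered 24 libraries of CD11c-selected cells, 8 groups of 3, as labelled. Per the submitters' processing notes, STAR 2.4.0, HTSeq 0.6.1 and DESeq2 were used with mm10, and strand use in counting is not given in the sources used here. The deposited signal, called normalised count in the text, is the count of reads per gene divided by a factor for each library. Whole reads were recovered for 100% of values within a tolerance of 0.001. Totals were 24531528 to 49272593 reads, and counting precision is high except for genes near 0.

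Genes with a mean of at least 10 over all libraries (12749 of 12767) were tested with limma 3.58.1 in R 4.3.3 on log2(value + 1), with trend and robust options, 1 mean per group over all 24 libraries, two-sided, with Benjamini-Hochberg adjustment over all genes and a threshold of 0.05. This replaces a count test because the deposited values are scaled; edgeR 4.0.16 and DESeq2 1.42.0 on the recovered reads were alternatives. The other alternatives were another pseudocount, no filter, TMM scaling, array weights, fewer libraries, a replicate block and other class borders. The linear model was tested on simulated data with the same spread in every library. The simulation therefore does not cover the unequal libraries found here.

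Named genes were, per class and direction, up to 6 with the largest effect among those with a mean of at least 20 in 1 group and no overlap, up to 4 per list, a fixed set, and the genes nearest the borders. The members and lists were chosen with earlier results of these data known. Promoter sequences came from RefSeq, GRCm38.p6.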

Additional observations from a re-analysis of the deposited data

Results flagged for a closer look

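The genotype difference of the LGG effect is itself a difference between groups under 1 contrast, called by limma in 4449 genes without anti-PD-1 and in 4804 genes with it. The test of whether these differences change with anti-PD-1, with minus without, passed in 130 genes (1.02%). Among the genes named here it was -2.05 for Cd3e, -1.49 for Cd8a, -1.21 for Gzmb, -1.18 for Eomes, -3.07 for Pdcd1, -2.45 for Adamts14 and -1.49 for Fscn1, each lower with anti-PD-1. For Serpinb9b it was 2.52, higher with anti-PD-1. Of the 170 knockout-only rises 28 passed this test. It shares libraries with the rule that sorted these rises, so the count is a description only. Cd3e stood at 196, 169 and 198 in the KO combination and 114, 59.9 and 119.5 in KO anti-PD-1 libraries, against 943, 896 and 882 in the WT combination and 574, 571 and 558 in WT anti-PD-1 libraries. The summed level of the T cell list was 6841 to 7015 in the KO combination and 2760.5 to 4795 in KO anti-PD-1 libraries. Groups of 3 libraries were not tested for an outlying value of single genes. Over all genes the array weights of KO LGG replicate 2 (0.0844) and KO anti-PD-1 replicates 2 and 3 (0.0578 and 0.0613) were the lowest of the 24.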

How the results depend on the processing

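Counts of genes moved most when unequal library quality was modelled. With array weights the genotype difference was called in 8949 genes without and 8614 with anti-PD-1, the KO effect in 9068 (WT effect 9777), the IgG difference in 8769 and the change with anti-PD-1 in 1645. Without KO LGG replicate 2 and KO anti-PD-1 replicates 2 and 3 these counts were 8010, 7239, 7830, 8139 and 494. DESeq2 gave 523 for the change with anti-PD-1. The replicate block gave 4304, edgeR 4519 and DESeq2 4877 for the genotype difference. A limma fit of only the 12 libraries of the 4 groups gave 4876. Deviations of same-numbered libraries from their group means correlated from -0.302 to 0.560 in 18 pairs, 6 of them over 0.1. Differently numbered libraries were not compared, so these values cannot decide whether the numbers pair the samples. The block changed no call of a named gene.

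With array weights 67 genes were stronger, 194 reversed, 152 undecided and 311 knockout-only, and without the 3 libraries 47, 163, 278 and 325; DESeq2 gave 35 stronger. A response size of 0.6 gave 1705 lost, 626 kept, 68 stronger, 140 reversed, 1350 undecided and 303 knockout-only genes, and a size of 2 gave 413, 128, 3, 26, 129 and 59, with 397 weakened. A lost ratio below 0.1 gave 597 lost and 1465 weakened; a kept ratio of 0.5 to 2 gave 866 kept, 4 stronger and 426 undecided; an adjusted p below 0.01 gave 13 stronger and 54 reversed. The lost class shared 1041 of its 1107 genes with the class edgeR gave and 931 with that without the 3 libraries.

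Leaving out each library in turn gave 3974 to 5242 genotype differences, 3352 to 4772 KO effects, 6453 to 7455 WT effects, 6429 to 7047 LGG and 4053 to 5472 IgG differences. Class sizes were 1052 to 1146 lost, 851 to 979 weakened, 354 to 421 kept, 18 to 32 stronger, 68 to 104 reversed, 539 to 809 undecided and 159 to 238 knockout-only. Of named genes, Il1f9 turned to -0.057 and Pdcd1 to -0.042 with a pseudocount of 8, and Il1f9 ran from -0.075 without WT IgG replicate 1 to 0.22 without WT IgG replicate 3. Among kept genes, the difference of Clec4d was called with array weights (-0.64, limma adjusted p = 1.05e-05) and without the 3 libraries (-0.66, 0.000112). That of Id3 was called with limma on the 12 libraries alone (adjusted p = 0.0411). The difference of Ifit1 was called in these 3 settings and with DESeq2. The causes were not tested.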

Other observations

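Genes that mark subsets of conventional dendritic cells mostly had a higher genotype difference, but some moved the other way. Of 13 type 1 markers it was higher in 7 and lower in 2, Xcr1 and Irf8, with a median of 0.94. Of 13 type 2 markers it was higher in 9 and lower in 2, with a median of 1.31. The shares over all genes were 19.5% higher and 15.4% lower. Xcr1, the chemokine receptor that defines type 1 cells, had 113, 109 and 97.5 in KO LGG, 86.7, 97.0 and 87.1 in KO IgG, 209.6, 182 and 172 in WT LGG and 12, 14.5 and 16.9 in WT IgG libraries. KO libraries lay below WT LGG and above WT IgG libraries. Xcr1 rose in WT, by 3.62 ± 0.19, beside a KO effect of 0.24 ± 0.19 that did not pass the test. Clec9a, a type 1 receptor for dead cells, moved the other way, with 413, 359.6 and 435 in KO LGG, 284, 292 and 334 in KO IgG, 18.9, 25.7 and 26.3 in WT LGG and 225, 232 and 182 in WT IgG libraries. WT LGG libraries were the lowest, and KO LGG libraries the highest. The effect was 0.41 ± 0.15 in KO and -3.12 ± 0.15 in WT. Clec10a, a lectin of type 2 cells, and Klf4, a transcription factor they need, were weakened falls, with differences of 1.73 ± 0.33 and 1.14 ± 0.27.

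Cytosolic nucleic acid and NOD sensors detect bacterial products by routes that do not use Myd88. Of 21 such genes tested, the genotype difference was lower in 9 and higher in 3, beside 15.4% and 19.5% of all genes. Nod2, which senses a fragment of the bacterial cell wall, had 170.0, 155 and 235 in KO LGG, 80.8, 120.4 and 104 in KO IgG, 845, 916 and 964 in WT LGG and 200.3, 203 and 178 in WT IgG libraries. LGG libraries exceeded IgG libraries in both genotypes, and the rise was weakened, 0.87 ± 0.16 in KO against 2.22 ± 0.16 in WT. Ripk2, the kinase through which Nod2 signals, was a lost rise with a difference of -1.18 ± 0.13. Casp4, an inflammatory caspase that binds lipopolysaccharide, and Ifi205, an interferon-induced gene, were weakened rises with differences of -1.35 ± 0.19 and -3.77 ± 0.28.

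Of the metabolic genes, 15 of 18 in glycolysis and 16 of 20 in cholesterol synthesis were in no class, as were 9367 of all 12749 genes. Pfkfb3, which drives glycolysis, was a lost rise with 0.34 ± 0.14 in KO and 2.14 ± 0.14 in WT. Dhcr7, which makes cholesterol from its last precursor, had 873, 923 and 920.4 in KO LGG, 1432, 1317 and 1302 in KO IgG, 165, 205 and 224 in WT LGG and 1426, 1339 and 1463 in WT IgG libraries. It fell in both genotypes, with -0.57 ± 0.11 in KO and -2.84 ± 0.11 in WT.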
